A study of Homo sapiens with 6 samples.

Results

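The genes described here are 10 regulators and markers of the epithelial-mesenchymal transition: CDH1, CDH2, VIM, FN1, SNAI1, SNAI2, TWIST1, ZEB1, ZEB2 and EPCAM. They were chosen by gene name, with earlier results of these data known, and each had 1 row among the 58735 genes of the expression table. The cells were SK-MES-1, a human lung squamous cell carcinoma line, sequenced after transient knockdown of KRT6A, a keratin of stratified epithelium. The labels give 3 groups of 2 libraries: si1 and si2, the knockdown groups, and NC, the control group. They do not say which reagent each group received, for how long, or whether replicates came from separate cultures, so the p-values rest on a spread between libraries that may be technical. All 3 groups share 1 cell line, and si1 and si2 share the same NC libraries.

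In the epithelial-mesenchymal transition, cells give up the junctions and apical-basal order of an epithelium and take on the cytoskeleton, matrix and motility of mesenchymal cells. A small group of transcription factors of the SNAI, TWIST and ZEB families drives it by repressing CDH1 and other junction genes. The microRNAs of the miR-200 family and miR-205 hold ZEB1 and ZEB2 down in epithelial cells, and the ZEB factors repress the miR-200 genes in turn. In carcinomas the programme is often partial, with epithelial and mesenchymal genes expressed in the same tumour.

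Expression is given as FPKM, which divides the fragments of a gene by its length and by sequencing depth. For each member the length used equalled that of its merged GENCODE 29 exons. Orders, ranks and ratios between genes depend on these lengths, which may differ from those of the transcripts expressed. The libraries held 14948607 to 17401392 reads assigned to genes, and 12333 to 12439 genes reached 1 FPKM in each. KRT6A itself had 0 reads in all 6 libraries, where 3 reads would have been 0.0583 to 0.0678 FPKM, so the knockdown could not be checked from its own transcript. Of 17 squamous and basal cell markers, 5 averaged at least 1 FPKM: PERP, S100A2, PKP1, TP63 and KRT15. KRT6A and DSG3 were listed at 0, and KRT5 and KRT14 averaged 0.00221 and 0.00447 FPKM. Keratins of simple epithelium were abundant, with KRT7 at 146, KRT19 at 87.1, KRT18 at 51.6 and KRT8 at 47.8 FPKM on average. The other squamous and basal markers also averaged under 1 FPKM. These were SOX2 (0.524), DSC3 (0.375), TRIM29 (0.122), KRT16 (0.121), NGFR (0.102), KRT17 (0.0683), CLCA2 (0.0164) and KRT6B (0.00416). The squamous label was thus met only in part, by TP63, S100A2, PERP, PKP1 and KRT15. The defining keratins KRT5, KRT6A and KRT14 were at or near 0.

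By level, the cells carried the mesenchymal markers VIM, FN1 and CDH2 and little of the epithelial cadherin CDH1. Wider lists were mixed: 23 of 40 other mesenchymal genes and 24 of 38 epithelial junction and surface genes averaged at least 1 FPKM. Mesenchymal SPARC averaged 0.0558 and POSTN 0 FPKM, while epithelial DSG2 averaged 55.3 and JUP 27.7 FPKM. VIM averaged 204 FPKM over the 6 libraries and ranked 93 among the protein-coding genes, and FN1 averaged 148.7 FPKM and ranked 137. CDH2 averaged 38.9 FPKM, SNAI2 12.0, ZEB1 6.53, EPCAM 4.63, TWIST1 3.02 and SNAI1 2.51 FPKM. CDH1 averaged 0.130 FPKM, and ZEB2 had 0 reads in every library. The order held in NC, but in si2 both FN1 libraries (194 and 199 FPKM) lay above both VIM libraries (189 and 179 FPKM), whereas VIM was above FN1 in every si1 and NC library. Where FN1 and VIM cross depends on the lengths used, 17315 bases for FN1 and 5158 for VIM, and FN1 had more reads than VIM in every library. Among the low factors, TWIST1 and SNAI1 overlapped in si1 (4.15 and 2.70 FPKM for TWIST1, 3.77 and 3.86 FPKM for SNAI1) and in si2 (2.40 and 2.21 FPKM for TWIST1, 2.89 and 1.84 FPKM for SNAI1). In NC they were apart, with TWIST1 at 3.24 and 3.42 FPKM and SNAI1 at 1.46 and 1.25 FPKM.

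**Figure D1:**
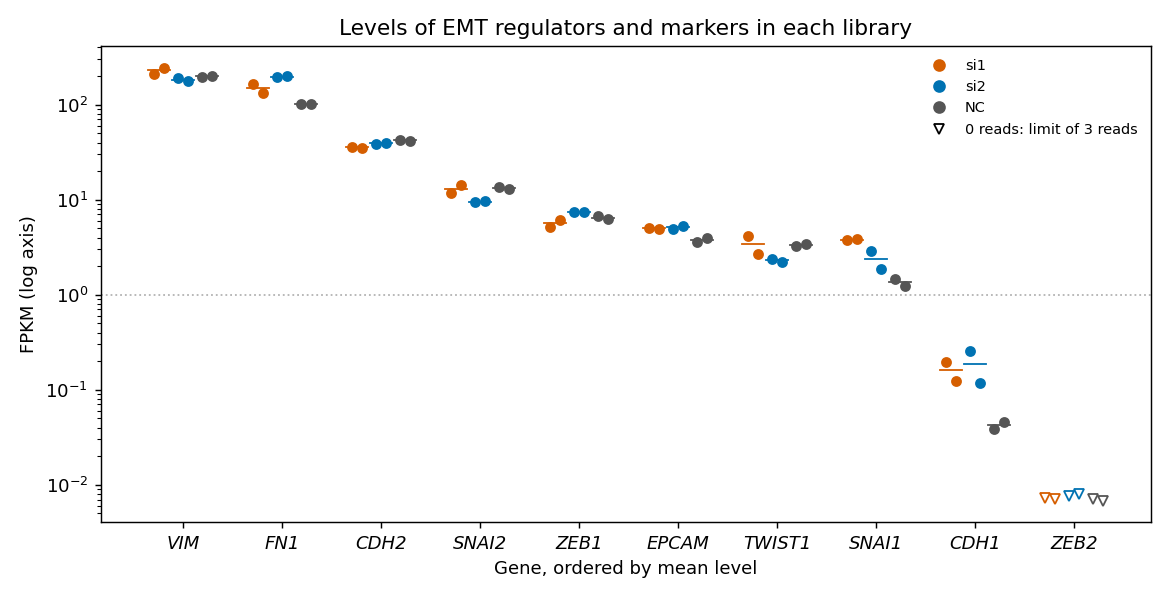
FPKM of the members (logarithmic axis) in each library of si1, si2 and NC, where each point is 1 library and each line the group mean. VIM, FN1 and CDH2 lay above 30 FPKM in all libraries, CDH1 lay below 0.3 FPKM, and ZEB2, with 0 reads, is drawn as open triangles at the limit of 3 reads.

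Differences were tested with limma on log2(FPKM + 1) over the 12319 genes that averaged at least 1 FPKM, and a gene was called at a Benjamini-Hochberg adjusted p under 0.05. A log2 fold change on this scale understates the change of a low gene. The RNA is bulk, so fewer cells of a kind and less RNA per cell cannot be told apart. Of the members, 8 were tested, and CDH1 and ZEB2 were too low. With both knockdown groups set against NC, 3 of the 8 rose (FN1, SNAI1 and EPCAM), beside 8.73% of all genes tested, and 0 fell, beside 11.8% (limma, with CDH2 and SNAI2 lower at an unadjusted p under 0.05, and CDH2 called lower by voom on reads). In si1 against NC, 3 rose (the same FN1, SNAI1 and EPCAM), beside 9.47% of all genes, and CDH2 fell, beside 12.9%. In si2 against NC, FN1 and EPCAM rose, beside 13.6%, and SNAI2 fell, beside 15.4%. Between the knockdown groups, FN1 and ZEB1 were higher in si2 than in si1, beside 19.9% of all genes, and VIM, SNAI1 and SNAI2 were lower, beside 18.6%. These counts depended on the libraries: for both groups, 1 member was called without NC replicate 1 or NC replicate 2, in si1 1 without either of these, in si2 1 without either of these or without si2 replicate 1, and between si2 and si1, 1 without si2 replicate 1 and 0 without si2 replicate 2. The median log2 fold change of the 8 was 0.02 for both groups together, against -0.01 over all genes tested.

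**Figure D2:**
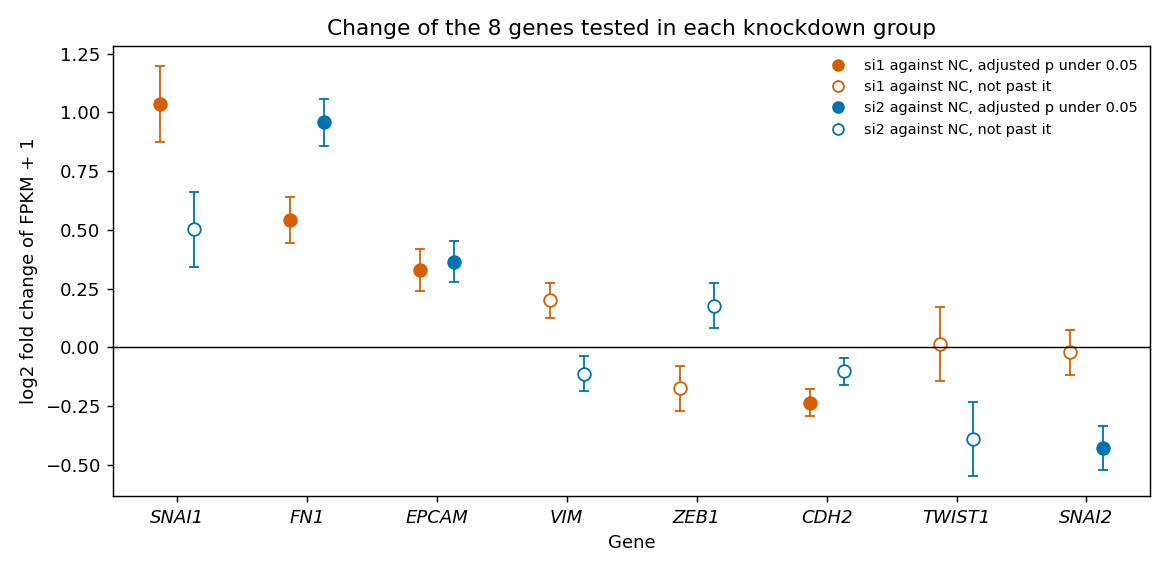
Log2 fold change of the 8 tested members on the log2(FPKM + 1) scale for each knockdown group over NC, with limma's standard error as the bar and filled points at an adjusted p under 0.05. FN1 and EPCAM lay above 0 in both knockdown groups, and the estimates of the 2 knockdown groups lay on opposite sides of 0 for VIM, ZEB1 and TWIST1.

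FN1 encodes fibronectin, the matrix glycoprotein that integrins bind, and is a standard marker of the mesenchymal state. The gene lies on the minus strand at chr2:215360440-215436172 (hg38). It was at 165 and 132 FPKM in si1, 194 and 199 FPKM in si2, and 101 and 101 FPKM in NC. Every knockdown library lay above both NC libraries, and both si2 libraries lay above both si1 libraries. The group means were 148 ± 23.6 FPKM in si1, 197 ± 3.40 in si2 and 101 ± 0.124 in NC (SD, n = 2 each), which is 1.47-fold and 1.95-fold the NC mean. The log2 fold change was 0.54 in si1 (SE 0.099, adjusted p = 0.00959) and 0.96 in si2 (SE 0.099, adjusted p = 0.001). It was 0.75 for both together (SE 0.0857, adjusted p = 0.00197). The difference between si2 and si1 was 0.41 (adjusted p = 0.0157), and 0.25 without si1 replicate 2. Leaving out NC replicate 1 or NC replicate 2 ended the si1 call (adjusted p = 0.0629 and 0.0584). The call between si2 and si1 ended without si2 replicate 1 (0.0608) or si2 replicate 2 (0.0716). With the 4 knockdown libraries as 1 group, so that the gap between si1 and si2 counts as error, the call for both together was lost as well (adjusted p = 0.138).

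The FN1 promoter is shown because FN1 changed in both knockdown groups, beside that of VIM, the most abundant member, which was not called against NC in either. Of the 10 members, 5 (CDH2, VIM, FN1, ZEB1 and ZEB2) had a promoter of 250 bases before to 50 after a start in RefSeq (GRCh38.p14). FN1 is given for chr2:215436019-215436318, minus strand, and VIM for chr10:17227991-17228290, plus strand, each 5′ to 3′. Capitals mark the cAMP response element TGACGTCA, the palindrome that CREB family factors bind.
FN1: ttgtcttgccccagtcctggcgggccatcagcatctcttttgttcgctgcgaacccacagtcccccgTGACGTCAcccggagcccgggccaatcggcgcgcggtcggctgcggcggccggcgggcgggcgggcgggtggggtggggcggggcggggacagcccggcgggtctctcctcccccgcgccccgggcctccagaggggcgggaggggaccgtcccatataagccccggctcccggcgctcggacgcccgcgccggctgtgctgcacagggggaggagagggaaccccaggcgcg
VIM: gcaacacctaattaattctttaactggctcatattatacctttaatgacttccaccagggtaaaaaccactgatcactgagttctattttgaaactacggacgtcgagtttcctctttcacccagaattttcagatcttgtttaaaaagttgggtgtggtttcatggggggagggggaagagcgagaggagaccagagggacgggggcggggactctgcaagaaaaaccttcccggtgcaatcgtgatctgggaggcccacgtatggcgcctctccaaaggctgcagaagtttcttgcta
The element stood 183 bases before the FN1 start, and these letters, which read the same on both strands, occurred in 1.85% of 35116 RefSeq promoters of the same length. The FN1 window also held 6 GC boxes (GGGCGG on either strand, found in 45.0% of promoters, some of them overlapping) and was 76.7% G and C. The VIM window held 1 GC box and was 48.0% G and C. Neither window held the E-box CACCTG, the letters to which SNAI and ZEB factors bind, on either strand, and 20.6% of all promoters did.

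VIM encodes vimentin, the intermediate filament of mesenchymal cells, and lies at chr10:17228259-17237593 on the plus strand. It was at 212 and 246 FPKM in si1, 189 and 179 FPKM in si2, and 197 and 201 FPKM in NC. Both si1 libraries lay above, and both si2 libraries below, the NC libraries. Neither difference from NC passed the test: the log2 fold change was 0.20 in si1 (SE 0.0758, adjusted p = 0.106) and -0.11 in si2 (SE 0.0758, adjusted p = 0.308). The difference between the groups did, at -0.31 for si2 against si1 (SE 0.0758, adjusted p = 0.017). For both together the 95% interval ran from -0.11 to 0.20. The si1 value was called without si1 replicate 1 (0.30, adjusted p = 0.0154) and by voom on reads (0.21, adjusted p = 0.0132), and was 0.095 and not called without si1 replicate 2. The difference between si2 and si1 was -0.21 without si1 replicate 2, and its call was lost without si2 replicate 1 (adjusted p = 0.0501) or si2 replicate 2 (0.0962). The ratio of FN1 to VIM in FPKM was 0.777 and 0.536 in si1, 1.03 and 1.11 in si2, and 0.512 and 0.503 in NC. The antisense gene VIM-AS1 overlaps VIM and had at most 65 reads in a library, and since the sources do not state whether counting used strand, reads of the pair cannot be told apart.

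CDH2 encodes N-cadherin, the adhesion receptor that replaces E-cadherin in mesenchymal cells, and lies at chr18:27950966-28177446 on the minus strand. It was at 36.2 and 34.9 FPKM in si1, 38.8 and 39.4 FPKM in si2, and 42.3 and 41.8 FPKM in NC, from 2926 to 3636 reads a library. All 4 knockdown libraries lay below both NC libraries. CDH2 fell in si1, by 0.24 on the log2 scale (SE 0.0576, adjusted p = 0.0273). In si2 the log2 fold change was -0.10 (SE 0.0576, adjusted p = 0.223), and for both together it was -0.17 (adjusted p = 0.0536). The 2 knockdown groups were not shown to differ (si2 against si1 0.13, 95% interval -0.003 to 0.269, adjusted p = 0.11). The call in si1 was lost when any library other than si1 replicate 1 was left out (adjusted p = 0.156 and 0.127 without NC replicates 1 and 2, 0.0513 without si1 replicate 2, 0.0613 and 0.0615 without si2 replicates 1 and 2). The value for both together was called without si1 replicate 1 (-0.18, adjusted p = 0.0309).

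CDH1 encodes E-cadherin, the adhesion receptor of epithelial junctions and the main target of the SNAI, TWIST and ZEB repressors, and lies at chr16:68737225-68835548 on the plus strand. It had 20 and 13 reads in si1, 25 and 11 reads in si2, and 4 and 5 reads in NC. In FPKM these were 0.198 and 0.124 in si1, 0.256 and 0.118 in si2, and 0.0388 and 0.0461 in NC. All 4 knockdown libraries lay above both NC libraries, at levels where a few reads decide the value. Summed over replicates, CDH1 took 10.1 of every 10000000 reads in si1 (exact Poisson 95% interval 6.94 to 14.2), 11.7 in si2 (8.23 to 16.3) and 2.65 in NC (1.21 to 5.02), where the intervals cover counting error only. The group mean was 3.80-fold that of NC in si1 and 4.41-fold in si2. An exact two-sided permutation test of the 4 knockdown against the 2 NC libraries gave p = 0.133. That is the smallest value the test can give here, as it doubles the one-sided value. It could not fall under 0.05 and so does not decide the question.

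CDH1 was below the filter of the main test, and the result of testing it depended on the scale. On reads, with voom over 15185 genes that averaged at least 10 reads, a filter set after the counts were seen, the log2 fold change for both groups together was 1.87 (SE 0.687, adjusted p = 0.0463). By the same test it was 1.79 in si1 (adjusted p = 0.0768) and 1.94 in si2 (adjusted p = 0.0459). CDH1 passed this filter only through the knockdown libraries, since NC, with 4 and 5 reads, lay under it. The filter was thus tied to the difference tested, and these calls are descriptions. The call for both together ended without NC replicate 1 (adjusted p = 0.225), NC replicate 2 (0.2), si1 replicate 1 (0.0877) or si2 replicate 1 (0.111), and the si2 call without NC replicate 1 (0.182), NC replicate 2 (0.162) or si2 replicate 1 (0.279). On log2(FPKM + 1) with no filter it was 0.17 for both together (SE 0.0669, adjusted p = 0.296). The level stayed far under that of CDH2 throughout: the FPKM ratio of CDH2 to CDH1 was 183 and 281 in si1, 151 and 335 in si2, and 1090 and 907 in NC. P-cadherin (CDH3) averaged 0.0779 FPKM and the endothelial cadherin CDH5 had 0, and after CDH2 the highest genes of the CDH name were CDH24 at 3.24, CDH12 at 2.16 and CDH13 at 1.12 FPKM.

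EPCAM encodes an epithelial cell adhesion molecule of carcinomas and lies at chr2:47345158-47387601 on the plus strand. It was at 5.03 and 4.95 FPKM in si1, 4.95 and 5.33 FPKM in si2, and 3.56 and 3.98 FPKM in NC. All 4 knockdown libraries lay above both NC libraries, and the 2 knockdown groups overlapped. EPCAM rose by 0.33 on the log2 scale in si1 (SE 0.0878, adjusted p = 0.0369), by 0.36 in si2 (SE 0.0878, adjusted p = 0.0216) and by 0.35 for both together (adjusted p = 0.0206). The difference between si2 and si1 was 0.04, with a 95% interval from -0.172 to 0.243. The call for both together ended when NC replicate 1 (adjusted p = 0.162), NC replicate 2 (0.0769) or si2 replicate 2 (0.0604) was left out. The si1 call was lost without any 1 of the 6 libraries (adjusted p = 0.0588 to 0.199), and the si2 call without NC replicate 1 (0.125), NC replicate 2 (0.0615), si2 replicate 1 (0.0666) or si2 replicate 2 (0.11). By voom on reads EPCAM was called in neither si1 (adjusted p = 0.0769) nor si2 (0.0525), and with the knockdown libraries as 1 group it was not called for both together (0.176).

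**Figure D3:**
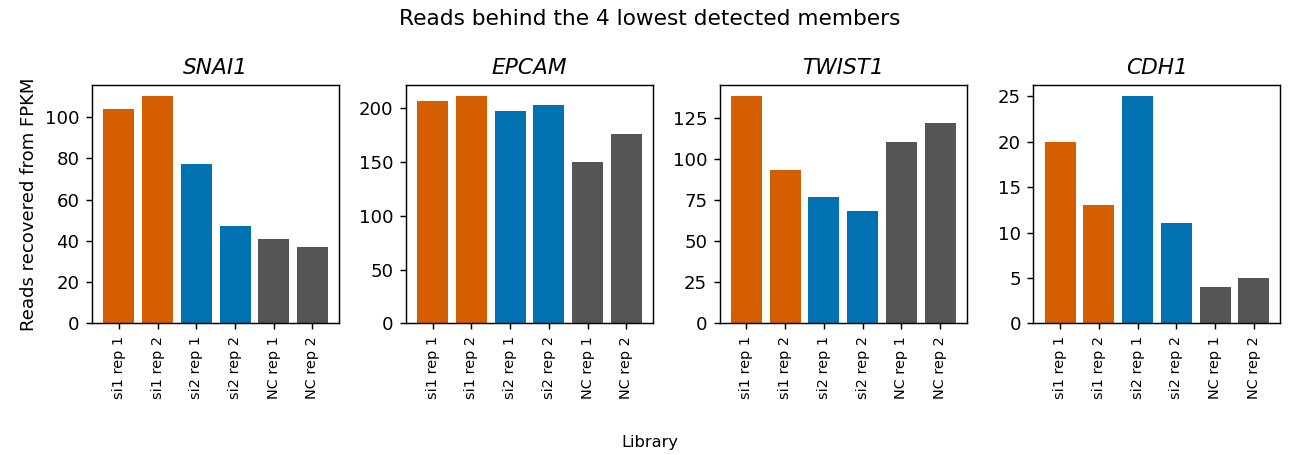
Reads behind the 4 lowest detected members, SNAI1, EPCAM, TWIST1 and CDH1, in each library of si1, si2 and NC. CDH1 had 11 to 25 reads in the knockdown libraries against 4 and 5 in NC, and SNAI1 had 47 to 110 against 41 and 37.

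SNAI1 encodes Snail, a zinc finger repressor that acts early in the transition, and lies at chr20:49982999-49988886 on the plus strand. It was at 3.77 and 3.86 FPKM in si1, 2.89 and 1.84 FPKM in si2, and 1.46 and 1.25 FPKM in NC. The reads were 104 and 110 in si1, 77 and 47 in si2, and 41 and 37 in NC. All 4 knockdown libraries lay above both NC libraries, and both si1 libraries lay above both si2 libraries. The group means were 2.82-fold and 1.75-fold that of NC in si1 and si2. SNAI1 rose by 1.03 on the log2 scale in si1 (SE 0.161, adjusted p = 0.00507), and this call held in all 13 alternatives run for it. In si2 the log2 fold change was 0.50 (SE 0.161, adjusted p = 0.055). Without si2 replicate 2 it was 0.73 and called (adjusted p = 0.0206), and without si2 replicate 1 it was 0.28 and not called. For both together it was 0.77 (adjusted p = 0.0107), and the call ended without NC replicate 1 (adjusted p = 0.0608) or NC replicate 2 (0.0883) and with the knockdown libraries as 1 group (0.213). SNAI1 was lower in si2 than in si1 by the test of the difference (-0.53, adjusted p = 0.0368), a call that stood without si2 replicate 1 and was lost without each other library (adjusted p = 0.0551 to 0.149), the value being -0.31 without si2 replicate 2.

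SNAI2 encodes Slug, the paralogue of Snail that basal epithelial cells also use, and lies at chr8:48917604-48921740 on the minus strand. It was at 11.9 and 14.3 FPKM in si1, 9.54 and 9.59 FPKM in si2, and 13.6 and 12.9 FPKM in NC. The si1 libraries spanned the NC values, and both si2 libraries lay below them. SNAI2 fell in si2 by 0.43 on the log2 scale (SE 0.0948, adjusted p = 0.016). In si1 the log2 fold change was -0.02, with a 95% interval from -0.246 to 0.202. The difference between si2 and si1 was -0.41 (adjusted p = 0.0142). The call in si2 was lost without NC replicate 1 (adjusted p = 0.0937), NC replicate 2 (0.071), si2 replicate 1 (0.0772) or si2 replicate 2 (0.0671), and that of the difference without si2 replicate 1 (0.0663) or si2 replicate 2 (0.0589). For both together, -0.23 (adjusted p = 0.0984) was called without si1 replicate 2 (-0.29, adjusted p = 0.0231). The third paralogue, SNAI3, averaged 0.260 FPKM.

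SNAI1 and SNAI2 thus had different values in the same libraries. In si1, SNAI1 was 2.82-fold and SNAI2 0.988-fold the NC mean, and in si2, SNAI1 was 1.75-fold and SNAI2 0.723-fold. SNAI2 stayed above SNAI1 in FPKM in all 6 libraries.

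TWIST1 encodes a basic helix-loop-helix factor of mesoderm that pairs with the E proteins TCF3, TCF4 and TCF12, and lies at chr7:19020991-19117672 on the minus strand. It was at 4.15 and 2.70 FPKM in si1, 2.40 and 2.21 FPKM in si2, and 3.24 and 3.42 FPKM in NC. The si1 replicates lay on either side of NC and both si2 libraries below it. No contrast passed the test: the log2 fold change was 0.01 in si1 (adjusted p = 0.961), -0.39 in si2 (SE 0.158, adjusted p = 0.11) and -0.40 for si2 against si1 (adjusted p = 0.0845). The interval for both together was wide, from -0.51 to 0.14. The si2 value was called without si1 replicate 1 (adjusted p = 0.0318) or si1 replicate 2 (0.0286), and the difference without si1 replicate 2 (-0.64, adjusted p = 0.0111). Without si1 replicate 1 the difference was -0.17 and not called (adjusted p = 0.341). Its paralogue TWIST2 was higher, at 8.40 to 11.5 FPKM.

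ZEB1 encodes a zinc finger and homeodomain repressor of CDH1 and lies at chr10:31318495-31529814 on the plus strand. It was at 5.13 and 6.17 FPKM in si1, 7.45 and 7.46 FPKM in si2, and 6.70 and 6.27 FPKM in NC. Both si1 libraries lay below, and both si2 libraries above, the NC libraries. The log2 fold change was -0.18 in si1 (SE 0.0959, adjusted p = 0.237) and 0.18 in si2 (SE 0.0959, adjusted p = 0.21), neither called. ZEB1 was higher in si2 than in si1 (0.35, SE 0.0959, adjusted p = 0.0258), a call lost without si1 replicate 1 (adjusted p = 0.0859), si2 replicate 1 (0.0979) or si2 replicate 2 (0.0933). For both together it was 8e-04, with a 95% interval from -0.195 to 0.197. ZEB1-AS1, an antisense gene that overlaps ZEB1, had at most 74 reads in a library.

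ZEB2, the paralogue at chr2:144364364-144524583 on the minus strand, had 0 reads in all 6 libraries. A count of 0 allows up to 3 reads, which would be 0.00707 to 0.00732 FPKM in si1, 0.00758 to 0.00792 FPKM in si2 and 0.00682 to 0.00716 FPKM in NC, for counting error only. Of the ZEB pair, only ZEB1 was detected at this depth.

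ZEB1 and ZEB2 are the best known targets of the miR-200 family and miR-205, whose mature sequences are shown because their host genes are read here beside ZEB1. The sequences are RefSeq's (GRCh38.p14), 5′ to 3′, with the seed, bases 2 to 8, in capitals.
hsa-miR-200a-3p: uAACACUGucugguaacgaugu
hsa-miR-141-3p: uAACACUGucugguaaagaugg
hsa-miR-200b-3p: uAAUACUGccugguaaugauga
hsa-miR-200c-3p: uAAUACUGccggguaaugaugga
hsa-miR-429: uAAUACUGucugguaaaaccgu
hsa-miR-205-5p: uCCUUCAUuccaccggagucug
miR-200a-3p and miR-141-3p share 1 seed, miR-200b-3p, miR-200c-3p and miR-429 share another that differs from it in 1 base, and miR-205-5p has its own. The host genes MIR200CHG and MIR205HG and the hairpins MIR200C, MIR141 and MIR205 had 0 reads in all 6 libraries. MIR429, MIR200A and MIR200B had 5, 5 and 4 reads over the 6 libraries together. Such reads count the host transcript or hairpin, and the mature microRNAs were not measured.

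The ZEB1 3′ untranslated region (2549 bases in GENCODE 29) held 6 copies of CAGTATT, the match to the seed of miR-200b-3p, 3 of CAGTGTT, the match to that of miR-200a-3p, and 1 of ATGAAGG, the match to that of miR-205-5p. These letters, read on the transcript strand, occurred in 19.6%, 21.8% and 13.3% of 10729 tested protein-coding genes. One site of each miR-200 kind is shown on hg38, plus strand, with the seed match in capitals.
ZEB1 chr10:31527618-31527639: attgttttatcttatCAGTATT
ZEB1 chr10:31528031-31528052: caaaatcatcagaatCAGTGTT
ZEB2 held 5 and 4 copies of the miR-200 matches, FN1 held 2 copies of CAGTATT and SNAI2 held 1. CDH1, CDH2, VIM, SNAI1, TWIST1 and EPCAM held 0 copies of any of the 3 matches.

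The other transcription factors of the transition were taken as a list of 19, of which 15 were tested. This and the later lists were drawn up with earlier results of these data known, so their counts are descriptions. With the knockdown libraries as 1 group, limma kept the call for both together for TCF3, ELF3 and PERP (adjusted p = 0.0226, 0.0159 and 0.0287). It was lost for the other genes reported below as called for both together. For both groups together 4 rose, beside 8.73% of all genes tested, and 2 fell, beside 11.8%, with a median log2 fold change of 0.13. TCF3, the E protein partner of TWIST1 that also represses CDH1, was at 22.6 and 19.6 FPKM in si1, 20.1 and 21.5 FPKM in si2, and 10.1 and 10.3 FPKM in NC, with no overlap of either knockdown group with NC. It rose by 0.97 on the log2 scale (SE 0.0734, adjusted p = 0.000515), with 0.98 in si1, 0.96 in si2 and a difference between them of -0.02 (adjusted p = 0.886). SOX4, an SRY-related factor of the TGF-beta response, was at 25.7 and 26.0 FPKM in si1, 11.6 and 12.1 FPKM in si2, and 10.9 and 12.1 FPKM in NC. It rose in si1 (1.10, adjusted p = 0.000237), whereas si2 overlapped NC (0.04, adjusted p = 0.739). ID3, which sequesters E proteins, rose by 0.81 in si1 (adjusted p = 0.000276) and by 0.25 in si2 (adjusted p = 0.0178), the si2 call ending without either NC or either si2 library (adjusted p = 0.0512 to 0.127). Between si2 and si1, 7 of the 15 were higher in si2, beside 19.9% of all genes, and 4 were lower, beside 18.6%.

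Genes that hold the epithelial state in place, such as the splicing regulators ESRP1 and ESRP2 and the GRHL and OVOL factors, mostly lay under 1 FPKM. Of 17, 6 were tested. For both groups together 2 rose, beside 8.73% of all genes tested, and 0 fell, beside 11.8% (limma, with 0 lower at an unadjusted p under 0.05 and 0 by voom). ELF3, an epithelial ETS factor, was at 5.61 and 5.04 FPKM in si1, 5.87 and 5.56 FPKM in si2, and 1.81 and 1.88 FPKM in NC. The groups were far apart relative to the replicates, and ELF3 rose by 1.15 in si1 (adjusted p = 0.000388) and by 1.24 in si2 (adjusted p = 0.000299). FOXA1, a pioneer factor of endoderm, rose by 0.40 for both together (adjusted p = 0.0461), a call lost without NC replicate 1, NC replicate 2, si1 replicate 1, si2 replicate 1 or si2 replicate 2 (adjusted p = 0.0507 to 0.234).

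Of 38 epithelial junction and surface genes, 24 were tested. For both groups together 3 rose, beside 8.73% of all genes tested, and 4 fell, beside 11.8%, and the median was 0.00. In si1, 9 rose (9.47% of all genes) and 4 fell (12.9%) with a median of 0.18, and in si2, 3 rose (13.6%) and 8 fell (15.4%) with a median of -0.18. Set directly against si1, si2 had 2 of these genes higher, beside 19.9% of all genes, and 12 lower, beside 18.6%, with a median of -0.39 against 0.01 over all genes tested. The tight junction gene CLDN4 was at 8.87 and 7.93 FPKM in si1, 8.79 and 7.34 FPKM in si2, and 13.7 and 17.1 FPKM in NC, and fell by 0.83 for both together (adjusted p = 0.00325). MUC1, a surface mucin, was at 2.54 and 3.16 FPKM in si1, 0.698 and 0.940 FPKM in si2, and 0.723 and 0.773 FPKM in NC. MUC1 passed the filter of 1 FPKM only through si1, as every si2 and NC library lay under it, so its tests are descriptions. It rose in si1 (1.13, adjusted p = 0.00297), and its call for both together (0.59, adjusted p = 0.0225) was lost without NC replicate 1, NC replicate 2, si1 replicate 2 or si2 replicate 2 (adjusted p = 0.0516 to 0.126).

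Of 40 mesenchymal matrix, cytoskeleton and surface genes, 23 were tested. For both groups together 6 rose, by 0.18 to 0.39 on the log2 scale, beside 8.73% of all genes, and 3 fell, beside 11.8%, and the median was 0.11. In si1, 4 rose (9.47% of all genes) and 8 fell (12.9%) with a median of 0.07, and in si2, 11 rose (13.6%) and 4 fell (15.4%) with a median of 0.24. The 6 that rose for both together changed less than AXL and FSTL1, which fell. AXL, a receptor tyrosine kinase of mesenchymal carcinoma cells, was at 36.9 and 34.8 FPKM in si1, 72.7 and 76.1 FPKM in si2, and 134 and 135 FPKM in NC. AXL fell in both, by 1.88 in si1 (adjusted p = 3.22e-05) and by 0.85 in si2 (adjusted p = 0.000267). FSTL1, a secreted glycoprotein, fell by 0.38 in si1 and by 0.74 in si2 (adjusted p = 0.00728 and 0.00051), the si1 call being lost without NC replicate 1 (0.0511) or NC replicate 2 (0.0641).

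**Figure D4:**
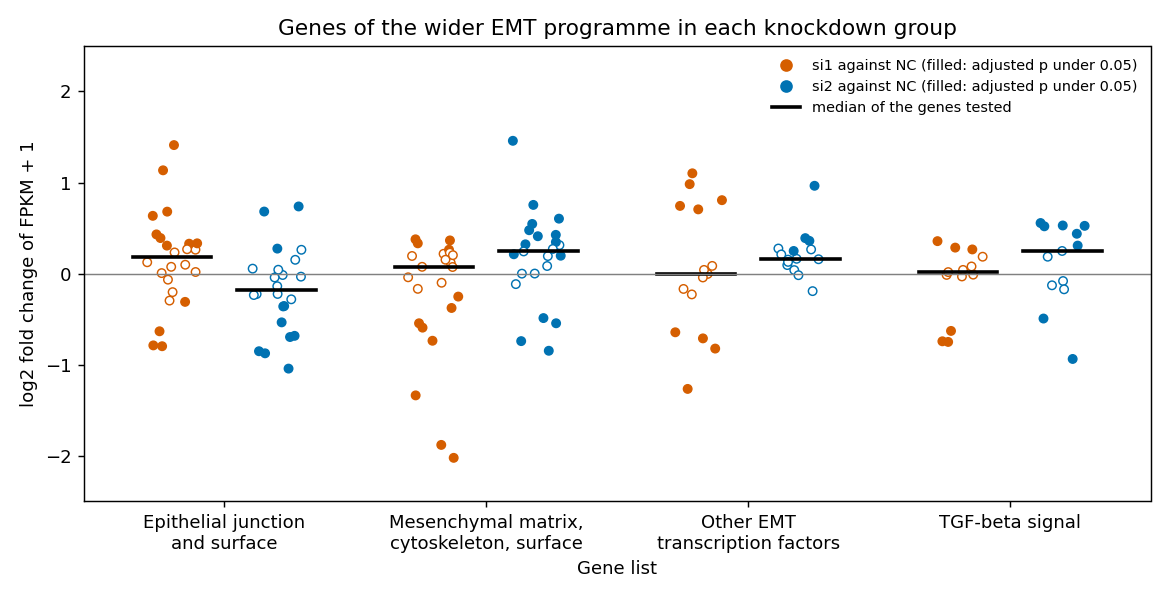
Log2 fold change on the log2(FPKM + 1) scale of each tested gene of 4 lists, in si1 and in si2 relative to NC, with a line at the median of each list and filled points at an adjusted p under 0.05. Epithelial junction and surface genes had medians of 0.18 in si1 and -0.18 in si2, and mesenchymal genes had 0.07 and 0.24.

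Partners of the members were read in the same way. Of 9 genes of the cadherin-catenin complex 7 were tested. For both groups together 0 rose by limma, beside 8.73% of all genes tested (2 at an unadjusted p under 0.05 and 2 by voom), and 1 fell, beside 11.8%. The 1 that fell was VCL, vinculin, at 21.4 and 19.1 FPKM in si1, 29.5 and 30.0 FPKM in si2, and 31.7 and 31.3 FPKM in NC. VCL fell by 0.62 in si1 (adjusted p = 0.0017), whereas si2 had -0.08 (adjusted p = 0.457), and its value for both together (-0.35) was no longer called without NC replicate 1 (adjusted p = 0.0943) or NC replicate 2 (0.0856). Of 13 receptors and assembly genes for fibronectin 8 were tested, and 3 rose, beside 8.73% of all genes, and 2 fell, beside 11.8%. ITGA5, the alpha chain of the main fibronectin receptor, was at 33.2 and 27.2 FPKM in si1, 30.8 and 31.8 FPKM in si2, and 40.4 and 41.0 FPKM in NC. It fell by 0.40 for both together (adjusted p = 0.0164), a call lost without NC replicate 1 (0.104) or NC replicate 2 (0.117). SDC4, the syndecan that co-operates with that receptor, was at 36.9 and 37.3 FPKM in si1, 96.6 and 102 FPKM in si2, and 44.8 and 43.7 FPKM in NC. It rose in si2 (1.15, adjusted p = 9.94e-05) and fell in si1 by 0.25 (adjusted p = 0.0232), the si1 call being lost without NC replicate 1 (0.148) or NC replicate 2 (0.102). ITGB8, an integrin beta chain that pairs with alpha v, rose by 1.25 in si2 (adjusted p = 0.000185) and by 0.33 in si1 (adjusted p = 0.0252), the si1 call being lost without either NC or either si1 library (adjusted p from 0.0601 to 0.141).

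Of 7 vimentin partners and related intermediate filaments 4 were tested. For both groups together 2 rose, beside 8.73% of all genes tested, and 0 fell by limma, beside 11.8% (2 lower at an unadjusted p under 0.05, 1 by voom). NES, nestin, was at 8.06 and 7.18 FPKM in si1, 13.2 and 13.9 FPKM in si2, and 7.12 and 7.02 FPKM in NC, and rose in si2 (0.85, adjusted p = 0.000692) but was not called in si1 (0.09, adjusted p = 0.45). Its value for both together (0.47) was not called without NC replicate 1 (adjusted p = 0.0512) or NC replicate 2 (0.0554). SYNM, synemin, rose by 0.64 in si1 (adjusted p = 0.00179) and by 0.42 in si2 (adjusted p = 0.00799), the si2 call being lost without NC replicate 2 (0.0628).

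Of 14 corepressors of SNAI and ZEB factors 13 were tested. For both groups together 1 rose, beside 8.73% of all genes tested, and 1 fell, beside 11.8%. HDAC1, a histone deacetylase that Snail recruits to CDH1, was at 35.3 and 33.1 FPKM in si1, 58.5 and 54.5 FPKM in si2, and 31.8 and 34.7 FPKM in NC. It rose in si2 (0.75, adjusted p = 0.000819), and si1 overlapped NC (0.04, adjusted p = 0.736). The value for both together (0.39) was lost as a call without NC replicate 1 (adjusted p = 0.0814). AJUBA, a LIM protein that binds Snail, fell by 0.37 for both together (adjusted p = 0.00497), a call lost without NC replicate 1 (0.0642) or NC replicate 2 (0.0557). Of 17 genes for the turnover of Snail and TWIST1 proteins 16 were tested. Here 0 rose, beside 8.73% of all genes (limma, with 0 at an unadjusted p under 0.05 and 0 by voom), and 4 fell, beside 11.8%. BTRC, the F-box protein that targets Snail for degradation, was at 4.83 and 4.28 FPKM in si1, 3.64 and 3.53 FPKM in si2, and 6.09 and 6.02 FPKM in NC. It fell by 0.48 for both together (adjusted p = 0.00586), a call lost without NC replicate 1 (0.064) or NC replicate 2 (0.0589). USP11, a deubiquitinase, and PAK1, a kinase that phosphorylates Snail, fell by 0.48 (adjusted p = 0.00586) and by 0.36 (adjusted p = 0.00864). The USP11 call was lost without NC replicate 1 (0.0721) and the PAK1 call without NC replicate 1 (0.076) or NC replicate 2 (0.085).

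Of 14 genes that carry the TGF-beta signal to the transition 13 were tested. For both groups together 4 rose, beside 8.73% of all genes tested, and 2 fell, beside 11.8%. TGFB2, a ligand, was at 17.4 and 17.4 FPKM in si1, 13.6 and 14.1 FPKM in si2, and 28.4 and 26.5 FPKM in NC. It fell by 0.63 in si1 (adjusted p = 0.00122) and by 0.94 in si2 (adjusted p = 0.00028). SMAD3, the transducer of that signal, was at 42.8 and 38.5 FPKM in si1, 49.1 and 48.4 FPKM in si2, and 69.4 and 68.6 FPKM in NC, with every knockdown library below NC. It fell by 0.75 in si1 (adjusted p = 0.000608) and by 0.49 in si2 (adjusted p = 0.00263). TGFBR1, the type I receptor, rose by 0.44 for both together (adjusted p = 0.00673), a call lost without NC replicate 2 (0.0699).

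Markers of other cells were read in the same way. Of 17 squamous and basal markers 5 were tested. For both together 2 rose, beside 8.73% of all genes tested, and 2 fell, beside 11.8%, with a median log2 fold change of -0.22. The summed level of the list was 141 to 162 FPKM in si1, 156 to 160.0 in si2 and 108 to 109 in NC. PERP, a desmosome protein and the highest of the list by mean level, was at 88.1 and 105 FPKM in si1, 112 and 111 in si2, and 51.8 and 49.3 in NC. It rose by 1.02 for both together (adjusted p = 0.000467). The higher sum followed PERP and was not a rise of the list as a whole. The desmosomal plakophilin PKP1 fell in si2 by 0.87 (adjusted p = 0.000406), with -0.04 in si1, and KRT15 fell in si1 by 0.80 (adjusted p = 0.00943), a call lost without NC replicate 2 (0.0707). Of 9 fibroblast markers 2 averaged at least 1 FPKM and COL1A2 was at 0. Their sum was 20.5 to 25.5 FPKM in si1, 23.6 to 24.1 in si2 and 17.7 to 18.1 in NC, nearly all COL1A1, which rose by 0.39 for both together (adjusted p = 0.0209) and was not called without NC replicate 1, NC replicate 2, si2 replicate 1 or si2 replicate 2 (adjusted p = 0.054 to 0.135). The part of these markers in the changes of FN1 and EPCAM was not tested. Leukocyte markers summed to 0.939 to 1.76 FPKM in si1, 1.33 to 1.54 in si2 and 0.887 to 1.53 in NC, with CD3E and MS4A1 at 0 and CD14 the highest. Endothelial markers summed to 0.488 to 0.652 FPKM in si1, 0.661 to 0.863 in si2 and 0.635 to 0.697 in NC, with CDH5 and CLDN5 at 0.

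The genes whose profile over the 6 libraries was most like that of a member were found by Pearson correlation of log2(FPKM + 1) among 7154 tested genes that averaged at least 5 FPKM. With 6 libraries in 3 groups, many genes reach a high r, so the names are a description. FN1 was most like CLIP1 (r = 0.996), CTTN (0.992) and PPL (0.992), SNAI1 most like KPNB1 (0.996), CHKA (0.995) and GPAA1 (0.988), and EPCAM most like GPSM2 (0.983), RAB4A (0.983) and CCDC77 (0.980). SNAI2 was most like RPS12 (0.996), UBE2K (0.995) and H2AFV (0.994), and CDH2 most like BAG6 (0.996), SLC7A5 (0.995) and PTGFRN (0.995). VIM was most like PAF1 (0.990), CIB1 (0.988) and PPIA (0.988), and ZEB1 most like ECT2 (0.996), HSP90B1 (0.994) and PSMD12 (0.994).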

How the data were processed

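RNA sequencing values of 6 libraries were deposited by the authors as FPKM per gene, with gene lengths. The submitters' processing notes name hg38 as the build. Which aligner, counting program, annotation and strand setting were used is not given in the sources used here. The coordinates of all 58735 genes equalled GENCODE 29. In each library, FPKM times length came in whole steps (within 0.001), and dividing by the step gave the reads quoted, 14948607 to 17401392 per library.

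The 10 members, the gene lists and the tests were chosen with earlier results of these data known. log2(FPKM + 1) was fitted with limma 3.58.1 in R 4.3.3 to all 6 libraries, with 1 coefficient per group (3 residual and 4.03 prior degrees of freedom, variances following a trend). Genes averaging at least 1 FPKM were tested, two-sided, and called at a Benjamini-Hochberg adjusted p under 0.05 among all genes of each of 4 contrasts. FPKM carries the SD of 2 libraries, and log2 fold changes carry limma's SE. Of each list, up to 3 called genes with the largest absolute change for both groups together are named. Some genes that this rule selects are not reported here. Alternatives were no filter, pseudocounts of 0.1 and 0.5, another scaling, a replicate block, fewer groups, the knockdown libraries as 1 group, voom on recovered reads, and each library left out.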

Additional observations from a re-analysis of the deposited data

Results flagged for a closer look

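The difference between the knockdown groups passed the test for 5 members and 16 of the other named genes, with 2 libraries per group. With no filter on low values, 0 of the members passed it, and the member calls also depended on single libraries, as given above. Of all genes tested, 19.9% were higher and 18.6% lower in si2 than in si1. As log2 fold change of si2 against si1, the difference was -0.31 for VIM, 0.41 for FN1, -0.53 for SNAI1, -0.41 for SNAI2 and 0.35 for ZEB1. Among regulators, SOX4 had -1.06, ID3 -0.56, HDAC1 0.71, AJUBA -0.26, BTRC -0.28, TGFB2 -0.31 and SMAD3 0.26. Among epithelial genes, MUC1, which passed the filter only through si1, had -1.08, PKP1 -0.83 and KRT15 0.52. Among matrix, adhesion and cytoskeleton genes, AXL had 1.03, SDC4 1.40, ITGB8 0.92, NES 0.76, VCL 0.54 and FSTL1 -0.36. For VIM, ZEB1 and SDC4 the 2 groups lay on opposite sides of NC. Of the genes outside the members, the difference was no longer called without some libraries for 5: AJUBA without si2 replicate 1 (adjusted p = 0.121) or si2 replicate 2 (0.0544), SMAD3 without si2 replicate 1 (0.109) or si2 replicate 2 (0.0834), and TGFB2 without si2 replicate 1 (0.0737). BTRC lost it without any library but si1 replicate 2 (0.0787 to 0.149), and KRT15 without any but NC replicate 1 (0.0501 to 0.102). The cause of these differences was not tested.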

How the results depend on the processing

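Of 416 alternative values of single members, 334 kept direction and side of the threshold, 61 lost a call, 11 gained one and 10 changed sign. Of 1404 for the other named genes, 1235 kept both, 154 lost a call, 3 gained one and 12 changed sign.

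The count of called members, 3 for both groups against NC, was 1 with no filter, 0 with the knockdown libraries as 1 group and 1 to 4 with 1 library left out. For si1 against NC, 4 became 2 with no filter, with only the groups compared and with the replicate block, and 1 to 4 with 1 library left out. For si2 against NC, 3 became 1 with no filter and 1 to 4 with 1 library left out. For si2 against si1, 5 became 0 with no filter and 0 to 5 with 1 library left out. Over all genes, 2529 called for both groups became 1127 with no filter, 84 with the knockdown libraries as 1 group and 701 to 2844 with 1 library left out. The 2758 of si1 became 1414 with no filter and 1114 to 2443, the 3578 of si2 became 1785 and 1490 to 4047, and the 4743 of si2 against si1 became 3130 and 2973 to 4367. Without a filter, 29572 genes were tested. The cause of the other changes was not tested.

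Signs that changed were of small, uncalled values. ZEB1 for both groups was -0.001 and -8.8e-05 with pseudocounts of 0.1 and 0.5, and -0.056 to 0.057 with 1 library left out. With 1 library left out, VIM for both groups was -0.0087 to 0.096, EPCAM for si2 against si1 -0.0089 to 0.08, SNAI2 in si1 -0.147 to 0.104 and TWIST1 in si1 -0.225 to 0.252. HDAC1 in si1 was -0.022 to 0.102, SOX4 in si2 -0.03 to 0.106 and MUC1 in si2 -0.042 to 0.15. For si2 against si1, TCF3 was -0.115 to 0.08, CLDN4 -0.17 to 0.061, FOXA1 -0.019 to 0.215, ITGA5 -0.081 to 0.196 and COL1A1 -0.113 to 0.182.

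Libraries share replicate numbers, but nothing says that these pair them, and deviations of same-numbered libraries correlated at -0.052, 0.0503 and -0.0577. The replicate block took CDH2 (adjusted p = 0.0594), EPCAM (0.0544), SDC4 (0.0505) and AJUBA (0.0692) in si1, FOXA1 (0.0575) for both groups and BTRC (0.0599) for si2 against si1 below the call. Depth limits CDH1, at 4 to 25 reads, and ZEB2, at 0.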
